A study of Mus musculus with 4 samples.

Results

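The insulin-like growth factor genes were followed in heart muscle cells of adult mice that carried inducible reprogramming factors and received doxycycline or PBS. The set is a list of 10 genes out of 20886 that the array names: the ligands Igf1 and Igf2, the receptors Igf1r and Igf2r, and the binding protein genes Igfbp2, Igfbp3, Igfbp4, Igfbp5, Igfbp6 and Igfbp7. They were found through the RefSeq accession of each probe, which gave 14 probes, and all 14 are described. Each array came from 10-week-old male mice bred by crossing an αMHC promoter-driven CRE line with a tetO line for the OSKM factors (Pou5f1, Sox2, Klf4 and Myc), so every group carried both transgenes and the αMHC promoter restricts the Cre to heart muscle. A tetO promoter answers to doxycycline only through a transactivator protein (rtTA or tTA); the labels name none, so whether the animals carried one is not known here. Control mice received PBS and treated mice doxycycline by intraperitoneal injection for 2 days, and adult cardiomyocytes were then isolated. There were 2 control and 2 doxycycline arrays. The samples lack a doxycycline group without the factors, so drug and factors cannot be told apart, and whether the 4 arrays stand for 4 separate mice is not stated in the labels, so the p-values cover only the spread among these samples, possibly a technical one.

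Insulin-like growth factors are small secreted proteins related to insulin that promote growth, protein synthesis and survival. IGF1 and IGF2 signal through the receptor tyrosine kinase encoded by Igf1r, which acts through insulin receptor substrates, PI3 kinase and Akt, and Akt in turn holds FoxO transcription factors out of the nucleus. The Igf2r product, also the mannose 6-phosphate receptor, takes IGF2 up and delivers it to lysosomes for breakdown. Binding proteins hold most of the secreted ligand and set how much reaches the receptors. In the heart, fibroblasts and macrophages are known sources of IGF1, and muscle cells respond to it through the receptor.

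Igf1 and Igfbp3 had the lowest and the highest difference among the members, and the 250 bases before their transcript starts are shown for that reason. RefSeq sequences of build GRCm38.p6 were found for all 10 genes, which have 14 starts between them. Capitals mark CG pairs. The Igf1 window lies at chr10:87860861-87861110 on the plus strand and the Igfbp3 window at chr11:7213924-7214173 on the minus strand.
Igf1: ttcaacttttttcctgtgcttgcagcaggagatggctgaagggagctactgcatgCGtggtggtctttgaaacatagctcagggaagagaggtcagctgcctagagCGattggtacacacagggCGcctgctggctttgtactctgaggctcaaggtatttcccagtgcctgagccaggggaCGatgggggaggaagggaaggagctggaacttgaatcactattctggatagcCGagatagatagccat
Igfbp3: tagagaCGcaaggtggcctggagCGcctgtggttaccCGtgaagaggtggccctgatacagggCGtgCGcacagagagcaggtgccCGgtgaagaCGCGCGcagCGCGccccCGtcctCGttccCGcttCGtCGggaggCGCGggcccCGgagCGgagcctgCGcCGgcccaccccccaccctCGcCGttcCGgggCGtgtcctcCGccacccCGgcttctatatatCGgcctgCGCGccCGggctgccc
The Igf1 window held 5 CG pairs and the Igfbp3 window 32, against a median of 6 over 32851 windows of the same length. Of all windows, 49.6% held no more CG pairs than that of Igf1 and 4.58% held at least as many as that of Igfbp3. Across the 14 windows of the members the count ran from 1 at one of the 4 Igf2 starts to 42 at Igf1r.

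Arrays were of comparable quality except for control array 1. The 75th percentile of the processed signal ran from 112 to 248, and 50.6% to 51.8% of spots were well above background. The coefficient of variation among spots of the same probe was 11.0% on control array 1, which the scanner software marked as out of range, and 4.02% to 4.81% on the remaining arrays. Induction of the factors was not evident for the set as a whole. The Myc probe read -2.34 and -3.21 after PBS and 1.77 and -0.49 after doxycycline (difference 3.41 ± 0.77, SE, limma adjusted p = 0.346). The Klf4 probe was well above background on every array, with a difference of -0.28 ± 0.48, that of Pou5f1 on doxycycline array 1 alone, and that of Sox2 on no array. All 10 cardiomyocyte markers, among them Myh6 and Tnnt2, were well above background on every array, and so were 10 of 10 endothelial markers. Levels are given as log2 of the processed signal relative to the array's 75th percentile, so 0 is that percentile. Differences are doxycycline minus control on this log2 scale with their standard error from limma (SE), each from 2 arrays per group. With 2 arrays per group, their number limits the precision.

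No member passed the test over all probes. Of the 14 member probes, 10, for 8 genes, were well above background on at least 2 arrays and were tested, and 0 of the 10 had an adjusted p under 0.05 in limma. The same was true of the whole array, where 0% of 20092 tested probes passed and the lowest adjusted p was 0.193. One of the 10, a dim Igf1 probe, entered the test through the control arrays alone, so the counts that follow are over the 9 member probes well above background on all 4 arrays. Before adjustment 2 of them had a p under 0.05, both for Igf1, and 4.81% of the 17562 such probes on the array met that level. Both doxycycline arrays lay below both control arrays for 2 of the 9, again those of Igf1, against 19.2% of such probes, and above both for 2, Igf1r and Igfbp3, against 14.8%. The groups overlapped for the other 5. The Igf1 probes share a target and count as 1 gene.

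**Figure D1:**
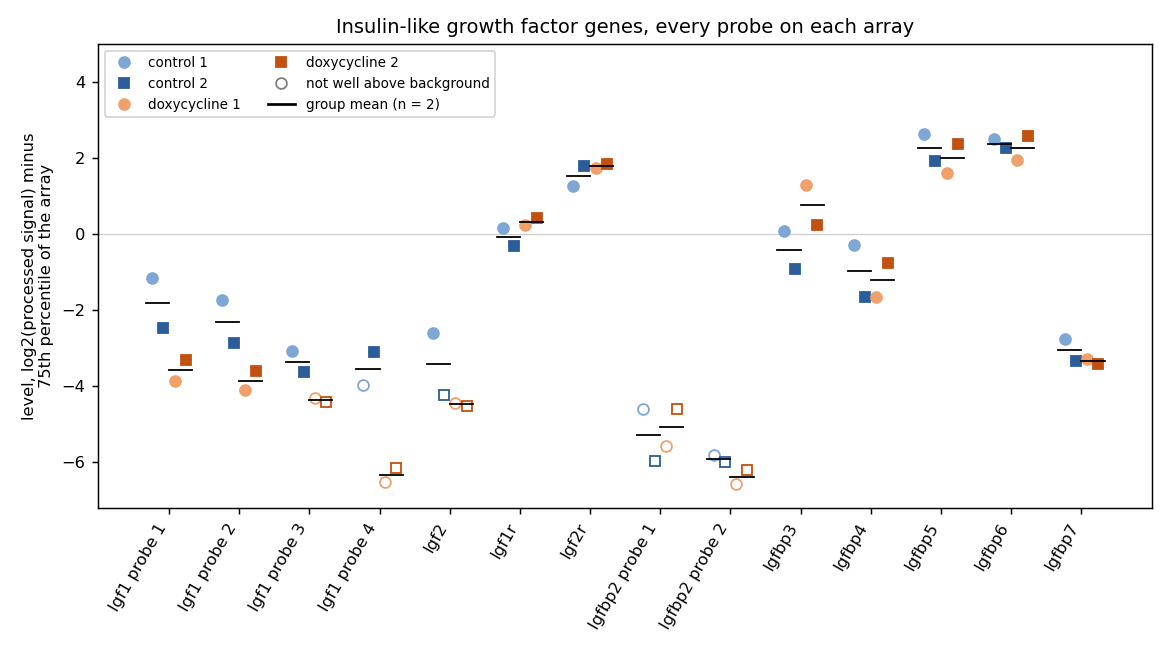
Level of each of the 14 member probes on each array (y axis, log2 processed signal minus the 75th percentile of the array). Filled symbols were well above background and open symbols were not, and black bars are group means (n = 2). Both Igf1 probes that are filled on every array read lower on both doxycycline arrays than on both control arrays, and both Igfbp2 probes are open on every array.

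Among the ligands, Igf1 read lower on both doxycycline arrays with both of its probes that were well above background on every array. The brightest Igf1 probe (A_55_P2031631) read -1.15 and -2.48 after PBS, a mean of -1.81 ± 0.94 (SD, n = 2), and -3.87 and -3.30 after doxycycline, a mean of -3.58 ± 0.40 (SD, n = 2). Its processed signals were 50.7 and 30.6 after PBS and 17.0 and 19.5 after doxycycline. The groups did not overlap, control array 1 was the highest of the 4, and the difference was -1.77 ± 0.56 (SE, 3.41-fold), which did not pass over all probes (limma adjusted p = 0.574). The next probe (A_55_P2085984) had the same order of arrays, with -1.74 and -2.87 in control, -4.11 and -3.61 after doxycycline, and a difference of -1.55 ± 0.51 (SE, limma adjusted p = 0.613).

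The remaining pair of Igf1 probes was too dim for a measured level after doxycycline. One of them (A_55_P2031636) read -3.08 and -3.63 after PBS and was well above background on neither array after doxycycline. By this probe Igf1 was at least 1.75-fold lower after doxycycline, a bound on the group means that leaves out the spread among arrays. It takes the control mean of -3.35 over a mean of -4.16 after doxycycline. Each doxycycline array enters with its own level or with the lowest level well above background on it, whichever is higher. The probe entered the test through the control arrays alone, so its direction adds no support. It did not pass either (limma adjusted p = 0.778). The dimmest probe (A_55_P2085974) was well above background on control array 2 alone, at -3.10, and was not tested. With 1 measured array it gives neither a fold nor an order of the groups.

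The size of the Igf1 difference moved with control array 1. Without that array the brightest probe differed by -1.11 and the next by -0.99, and without control array 2 they differed by -2.44 and -2.12. With normexp background correction in place of the scanner software's, the same probes differed by -0.86 and -0.71. That setting adds an offset of 50, which by arithmetic narrows log2 differences between signals as low as these. How much of the change it makes was not tested. Each level also depends on the 75th percentile subtracted, 112 and 171 after PBS and 248 and 193 after doxycycline. A processed signal that stays the same therefore reads lower after doxycycline. With no filter on dim probes the median difference of all probes was -0.36, against -0.04 for the tested ones. The brightest Igf1 probe was lower in processed signal too, before this scaling. The part of the scaling in the Igf1 differences was not tested. Markers of several other cell types also read lower after doxycycline, and none passed the test. Of 10 fibroblast markers, 9 had a negative difference, with a median of -1.83 that stood at -1.0 without control array 1. The list was not uniform, and without that array 4 of the 10 had a positive difference. Col1a1 and Col3a1 differed by -2.93 and -3.59, but Dcn by -0.32, or 0.52 without control array 1. Their summed level, in units of the 75th percentile, was 127 to 362 in control and 115 to 135 after doxycycline. Of 8 macrophage markers tested, 8 had a negative difference, among them Csf1r, Adgre1 and Mrc1. Their median was -1.08, or -0.48 without control array 1, and their summed level was 8.18 to 22.4 in control and 6.04 to 6.85 after doxycycline. All 5 tested red cell markers had a negative difference (median -1.62, or -0.42 without control array 1), with a summed level of 67.9 to 328 in control and 46.0 to 54.9 after doxycycline. The 4 tested Schwann cell markers had a median of -0.89, or -0.49 without control array 1. The 10 smooth muscle and pericyte markers had one of -0.79, or -0.09 without that array, where 5 of the 10 had a positive difference. Their summed level was 68.8 to 85.2 in control and 27.3 to 35 after doxycycline. Acta2, in this list, differed by -2.47, or -2.75 without control array 1. Other lists had a positive median, at 1.57 for the 2 tested adipocyte markers and 1.49 for the 4 tested lymphocyte and neutrophil markers. Without control array 1 these were 1.99 and 1.97. The medians of 0.18 for the 8 mesothelial and epicardial markers and 0.05 for the 10 cardiomyocyte markers became -0.27 and -0.39 without that array. The summed level of the cardiomyocyte markers was 4429 to 4960 in control and 3154 to 3958 after doxycycline, though 6 of the 10 had a positive difference. The remaining fibroblast marker, Mfap5, differed by 0.38. Postn was well above background on neither doxycycline array, and Fcgr1 was not on doxycycline array 1. Cd163 was well above background on fewer than 2 arrays, and Cd68 was not analysed here. The part of these cells in the Igf1 difference was not tested, and in such bulk samples fewer cells of a type and less RNA per cell cannot be told apart.

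**Figure D2:**
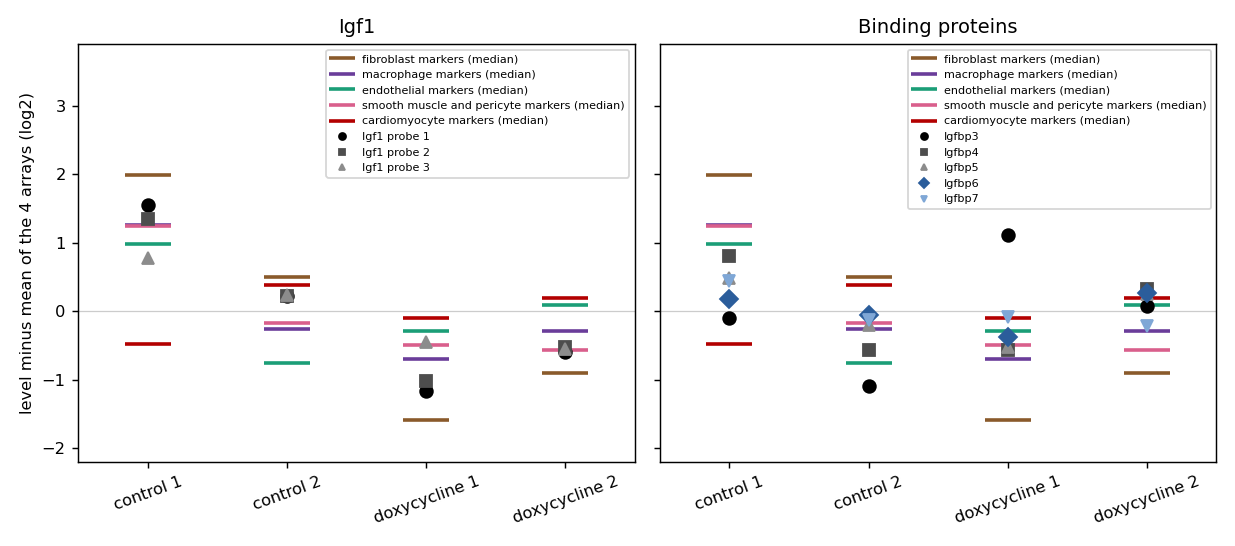
Levels of the tested Igf1 probes (left) and binding protein probes (right) on each array, each minus its own mean over the 4 arrays (y axis, log2), with the medians of 5 marker lists as coloured bars. The Igf1 probes and the fibroblast, macrophage, smooth muscle and endothelial medians are all at their highest on control 1. So are Igfbp4, Igfbp5 and Igfbp7, whereas Igfbp3 is at its highest on doxycycline 1 and Igfbp6 on doxycycline 2.

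Igf2, the fetal ligand, was at the edge of detection. Its single probe read -2.61 on control array 1, where it was well above background, and -4.23, -4.43 and -4.53 on control array 2 and doxycycline arrays 1 and 2, where it was not. It was not tested, and with 1 measured array no fold is given.

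The signalling receptor gene Igf1r was slightly higher on both doxycycline arrays. Its probe read 0.15 and -0.31 after PBS and 0.23 and 0.42 after doxycycline. The groups did not overlap, but the gap between control array 1 and doxycycline array 1 was small beside that between the control arrays. The difference was 0.40 ± 0.41 (SE, 1.32-fold, limma adjusted p = 0.942), with a 95% interval from -0.58 to 1.39. It was 0.63 without control array 1 and 0.18 without control array 2.

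Igf2r, the clearance receptor gene, had overlapping groups. Its probe read 1.26 and 1.80 after PBS and 1.73 and 1.84 after doxycycline, so control array 1 alone stood low. The difference was 0.25 ± 0.42 (SE, limma adjusted p = 0.980), with a 95% interval from -0.74 to 1.25, and it was -0.02 without control array 1. Since Myc was the OSKM factor with the largest difference, the start of Igf2r is shown as the one member start with more than 1 copy of the Myc E-box CACGTG. Its window lies at chr17:12769707-12769956 on the minus strand of GRCm38.p6, and capitals mark the E-boxes, which begin 48 and 7 bases before the start.
Igf2r: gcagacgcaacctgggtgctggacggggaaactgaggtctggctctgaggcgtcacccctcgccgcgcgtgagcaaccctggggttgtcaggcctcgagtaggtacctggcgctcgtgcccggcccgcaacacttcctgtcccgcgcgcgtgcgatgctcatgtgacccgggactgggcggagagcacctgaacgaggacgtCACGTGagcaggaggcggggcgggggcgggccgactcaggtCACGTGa
The E-box, which reads the same on both strands, was found in 6.02% of the 32851 windows and in 2 of the 14 of the members, those of Igf2r and 1 Igfbp2 start. On either strand, the octamer ATGCAAAT bound by Pou5f1 was in 1.6% of all windows and 0 of the members. The Sox motif CATTGTT was in 3.29% and at 1 Igf2 start, and the Klf motif GGGTGTGG was in 3.2% and at the Igfbp4 start. No 2 of these motifs shared a member window. A match is only a run of letters, and nothing here measured binding.

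Igfbp3, which encodes the main carrier of circulating IGF in its complex with the acid-labile subunit, was the binding protein gene with the largest difference. Its probe read 0.07 and -0.93 after PBS and 1.28 and 0.24 after doxycycline, with processed signals of 118 and 89.7 against 601 and 228. Doxycycline array 1 was the highest, and doxycycline array 2 lay close to control array 1, so the groups were separated by a narrow gap. The difference was 1.19 ± 0.55 (SE, 2.28-fold) and did not pass (limma adjusted p = 0.837). The 95% interval was -0.14 to 2.51. Leaving out control array 1 or 2 gave 1.69 or 0.69, and leaving out doxycycline array 1 or 2 gave 0.67 or 1.71. The neutrophil alarmin genes S100a8 and S100a9 were also highest on doxycycline array 1, at 1.61 and 3.66, against -0.11 and 2.08 on doxycycline array 2, and at most -2.19 and 0.17 in control. The other 2 tested genes of the lymphocyte and neutrophil list did not share this order, with differences of -0.33 for the neutrophil receptor gene Csf3r, lowest on doxycycline array 1 at 5.13, and -0.28 for the T cell gene Cd3e. Endothelial markers had a median difference of -0.18, or 0.49 without control array 1, so its sign turned on that array. Their summed level was 592 on control array 1, 191 on control array 2 and 179 to 246 after doxycycline. Whether either has a part in the Igfbp3 values was not tested.

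The other 4 binding protein genes that could be tested showed no separation of the groups. Igfbp4, whose product inhibits IGF action until it is cut by pappalysin, read -0.28 and -1.65 after PBS and -1.65 and -0.76 after doxycycline. Igfbp5, a matrix-bound member, read 2.62 and 1.93 after PBS and 1.61 and 2.38 after doxycycline. For both genes the arrays within a group lay farther apart than the group means. Igfbp6, whose product prefers IGF2, read 2.50 and 2.27 after PBS and 1.94 and 2.58 after doxycycline. Igfbp7, a more distant relative with low affinity for IGF, read -2.76 and -3.33 after PBS and -3.28 and -3.41 after doxycycline, near background with signals of 16.5 to 25.6.

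The differences of these 4 genes were smaller than their errors. They were -0.24 ± 0.59 for Igfbp4, -0.27 ± 0.48 for Igfbp5, -0.13 ± 0.43 for Igfbp6 and -0.29 ± 0.42 for Igfbp7 (SE, limma adjusted p from 0.965 to 0.987). Their 95% intervals ran from -1.66 to 1.18, -1.43 to 0.88, -1.16 to 0.90 and -1.30 to 0.71. Without control array 1 the values were 0.44, 0.07, -0.02 and -0.01, and without doxycycline array 1 they were 0.21, 0.11, 0.19 and -0.36, so the sign of the first 3 turned on 1 array. Scaling the arrays to their median put all 4 just above 0, at 0.05 to 0.22, while it moved the median of all probes from -0.04 to 0.30. Each of the 5 tested binding protein probes exceeded its control array 2 level on control array 1, by 0.22 to 1.37, as 46.9% of all tested probes did. Igfbp2, a fetal and brain binding protein gene, had 2 probes, and neither was well above background on any array, with signals of 2.00 to 7.95.

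**Figure D3:**
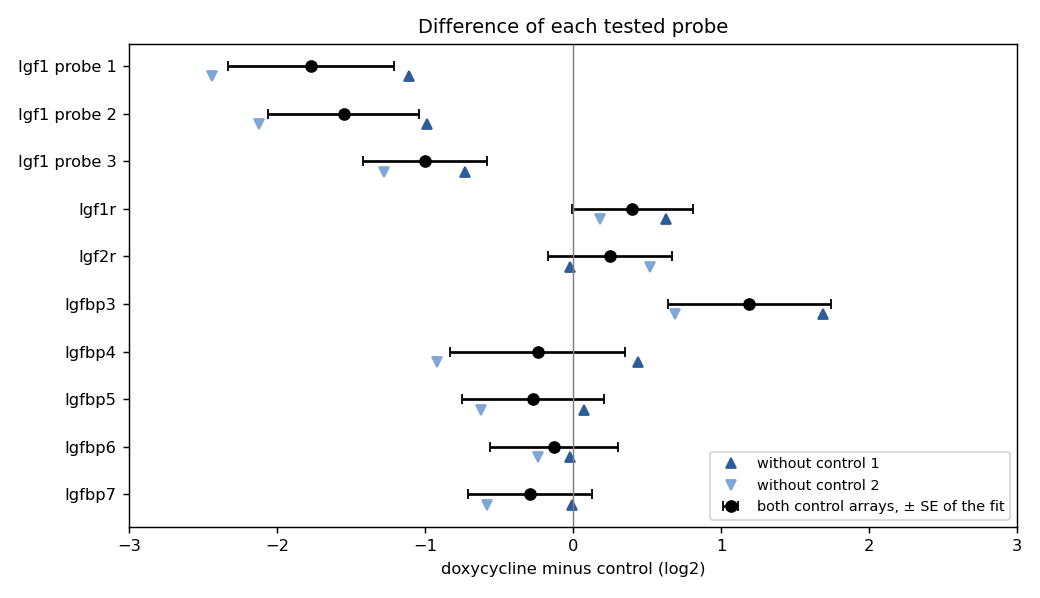
Doxycycline minus control difference of each tested member probe (x axis, log2, black points with the SE of the fit, n = 2 per group), with the value without control 1 and without control 2 as blue triangles. The 3 Igf1 probes, the dimmest with both doxycycline values not well above background, lie below 0 in all 3 versions and Igf1r and Igfbp3 above it, while Igf2r, Igfbp4 and Igfbp5 lie on both sides.

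The arrays also allow a view of which other transcripts followed the same course. Over the 4 arrays, each gene centred on its own mean and 11871 other named genes compared, the nearest to Igf1 by root mean square distance were Zfp365 (0.04), Akr1c14 (0.07), Unc5b (0.07) and Rab37 (0.08), with differences of -1.71, -1.81, -1.67 and -1.73. Those nearest to Igfbp3 were Adamts9 (0.07), Hal (0.09), Ccl9 (0.09) and Junb (0.10), with differences of 1.14, 1.16, 1.18 and 1.06. Zfp365 was well above background on 2 of the 4 arrays and Hal on 3, the other 6 genes on all 4. With 4 arrays this is a likeness of shape alone.

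Other genes of the IGF axis were mostly dim. Of 14 listed, 6 were tested, and 0 passed in either direction. Their median difference was 0.35, against -0.06 over the 12542 named genes tested, but it was -0.23 with normexp background correction, -0.12 over the 2 genes well above background on all 4 arrays, and 0.16 to 1.01 with 1 array left out. Igf2bp2, an RNA-binding protein named for Igf2 transcripts, read -3.40 and -3.01 after PBS and -1.23 and -1.96 after doxycycline. It was not well above background on control array 1, and its groups did not overlap (1.61 ± 0.45, SE, limma adjusted p = 0.475). The insulin receptor gene Insr differed by 1.71 ± 0.74 (limma adjusted p = 0.814), but read -2.83 on control array 1, not well above background, and -0.53, 0.12 and -0.06 on the others, and its difference without control array 1 was 0.56. Igfals, the acid-labile subunit, differed by 0.63 ± 1.03 (limma adjusted p = 0.979), or -1.10 without control array 1, where it was not well above background. Igfbp1, Insrr, Ins1, Pappa2, Stc1, Igf2bp1 and Igf2bp3 were well above background on fewer than 2 arrays, and H19 was not analysed here.

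Proteins that carry an IGFBP domain outside the classical family went both ways. Of 13 genes listed, 10 were tested and 0 passed in either direction. Both doxycycline arrays lay above both control arrays for 4 and below for 3, against 14.5% and 20.8% of named genes. Not all of these were measured on every array. Among those below, Ccn5 entered the test through the control arrays alone, and Esm1 was dim on doxycycline array 2. Among those above, Ccn3 was dim on control array 2. The median was -0.07. Esm1, an endothelial proteoglycan, read -1.07 and -2.25 after PBS and -3.88 and -4.68 after doxycycline (-2.62 ± 0.55, SE, limma adjusted p = 0.325). It was well above background on 1 of the 2 doxycycline arrays, the first, so the size of the difference is uncertain, and the value was -2.03 without control array 1. Ccn2, the connective tissue growth factor, read 2.38 and 3.62 after PBS and 5.09 and 4.57 after doxycycline (1.83 ± 0.53, SE, limma adjusted p = 0.515). Ccn5, a relative that lacks the last domain of the family, read -1.30 and -2.85 after PBS and was well above background on neither array after doxycycline. By the bound used for Igf1, which leaves out the spread among arrays, it was at least 4.03-fold lower (limma adjusted p = 0.529).

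The intracellular pathway had no common direction. Of 40 insulin and IGF signalling genes, 37 were tested, 17 with a positive and 20 with a negative difference, and 0 passed. Their median of -0.04 lay beside the -0.06 of all named genes. Irs2, an insulin receptor substrate, stood apart, with 0.60 and 0.33 after PBS and 3.44 and 1.98 after doxycycline. Its difference was 2.24 ± 0.56 (SE, 4.73-fold, limma adjusted p = 0.408) and 2.38 without control array 1. Another substrate, Irs1, read 0.30 and 1.06 after PBS and 0.59 and 1.52 after doxycycline, with overlapping groups. Pdpk1, the kinase that activates Akt, differed by 0.68 ± 0.39 (SE, limma adjusted p = 0.892). The kinases Akt1 and Akt2 differed by -0.19 and 0.31, each with overlapping groups.

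Of 18 genes that FoxO factors are known to activate, 17 had a positive difference, against 5666 of the 12542 named genes. Without control array 1 these counts were 13 of 18 and 5215 of 12542, with Trim63, Cited2, Sod2 and Sesn3 now negative. The median difference was 0.78, or 0.53 without that array. The groups were separated, doxycycline above PBS, for 10 of the 18, against 14.5% of named genes, and 0 passed. The list is not independent evidence, since earlier results on some of its genes were known when it was made, and Irs2 and Insr stand in it too. Pdk4, which switches off pyruvate dehydrogenase, differed by 4.37 ± 0.65 (limma adjusted p = 0.203). Bnip3, a mitophagy receptor, read 4.95 and 6.02 after PBS and 8.22 and 8.02 after doxycycline (2.64 ± 0.49, SE, 6.23-fold, limma adjusted p = 0.269). Its difference without control array 1 was 2.11.

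Growth hormone acts upstream of Igf1, and the genes of its axis differed in both directions. Of 10 genes tested, 4 had a positive and 6 a negative difference, and 0 passed. The receptor gene Ghr read 2.28 and 3.0 after PBS and 2.09 and 1.94 after doxycycline, without overlap (-0.62 ± 0.44, SE, limma adjusted p = 0.913). Socs3, an inhibitor of cytokine signalling, read 4.62 and 2.95 after PBS and 6.98 and 4.38 after doxycycline, so the groups overlapped and doxycycline array 1 was the highest (1.90 ± 0.93, SE, limma adjusted p = 0.859). The transcription factor gene Stat5a differed by -0.50 ± 0.45 (limma adjusted p = 0.926).

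**Figure D4:**
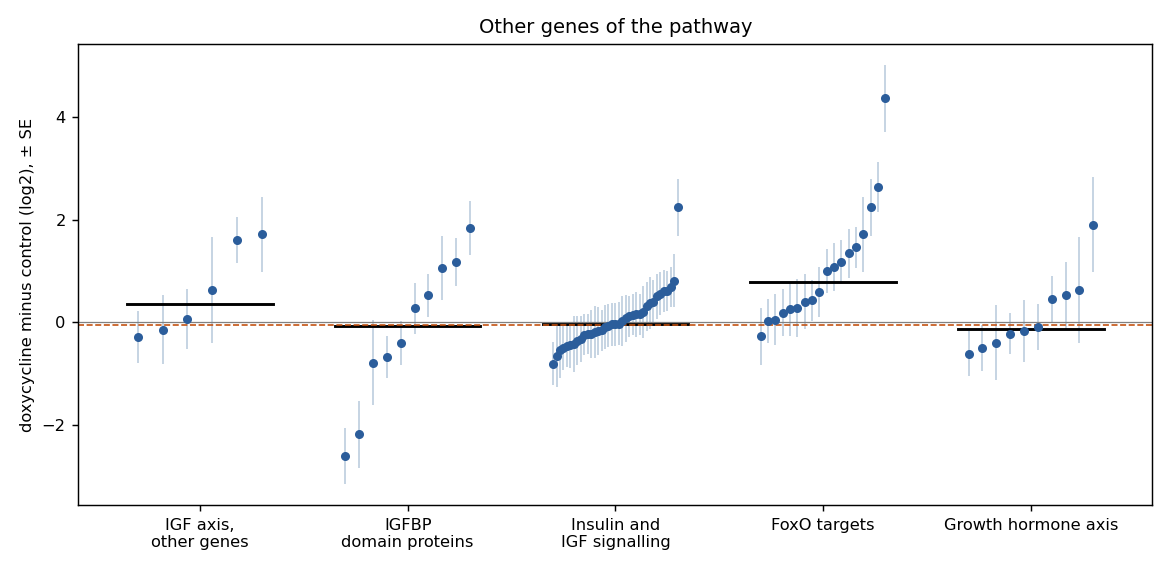
Doxycycline minus control difference of each tested gene (y axis, log2, points with the SE of the fit) in 5 lists, with list medians as black bars and the median of all named genes (-0.06) as a dashed line. The FoxO target list has its median at 0.78, and in the signalling list Irs2, at 2.24, lies apart from the rest.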

How the data were processed

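RNA of 4 samples was hybridised to Agilent 1-colour mouse arrays. The authors' Cy3 scans were quantified in Agilent Feature Extraction 10.7.1.1, per the file headers, which describe the deposited intensity as corrected for background and spatial trend inside each array. Other deposited columns, used per the file headers, are flags for control, outlying, saturated (0 spots) and well-above-background spots. Later steps are not given in the sources used here. Arrays shared 1 slide and 1 scan day.

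Here log2 intensity minus the 75th percentile of non-control spots was averaged over the unflagged spots of a probe. Probes were named by unversioned RefSeq accession (27508 of 39429, 20886 genes; GRCm38.p6 table, names only). A probe was tested if well above background on at least 2 arrays (20092 probes), meaning at least 0.5 of its spots. The test was limma 3.58.1 in R 4.3.3 (lmFit and eBayes, two-sided, 4.6 prior and 2 residual degrees of freedom) with Benjamini-Hochberg adjustment over all probes and a threshold of 0.05, and was tested on simulated data. An exact permutation test of 2 against 2 cannot go below 0.333. The brightest tested probe stood for a gene in lists. Figures used matplotlib 3.10.9.

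Members and lists were chosen with earlier results of these data known. Named were all members, in each list the genes that passed or the 3 with the smallest p, and the 4 nearest patterns. Individual values of some signalling genes, 1 of them named by this rule, are not reported here. Irs1, Akt1, Akt2 and the marker genes given, S100a8, S100a9, Csf3r and Cd3e included, were chosen after their values were seen. Alternatives were normexp background correction (offset 50, on the median signal), quantile or median scaling, other filters, 1 probe per gene, trended or robust variance, a replicate block and leaving out each array.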

Additional observations from a re-analysis of the deposited data

How the results depend on the processing

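0 member probes passed in any of the 14 alternatives run. The 3 tested Igf1 probes, Igf1r and Igfbp3 kept their direction wherever they were tested. The dimmest of these Igf1 probes entered the test through the control arrays alone, so its direction adds no support. Normexp background correction, with its offset of 50, reduced the Igf1 differences from -1.77, -1.55 and -1.0 to -0.86, -0.71 and -0.52. Of 137 member values under alternatives, 126 kept the main direction. Scaling to the median, which moved the median difference of all probes from -0.04 to 0.30, gave 0.11 for Igfbp4, 0.07 for Igfbp5, 0.22 for Igfbp6 and 0.05 for Igfbp7, and normexp gave 0.04 for Igfbp6. The member probes with both doxycycline arrays below both control arrays numbered 1 to 4, and those above 2 to 3, over the alternatives with all arrays. Leaving out 1 array gave -0.02 to 0.52 for Igf2r, -0.92 to 0.44 for Igfbp4, -0.66 to 0.11 for Igfbp5 and -0.45 to 0.19 for Igfbp6. Probes called over the whole array numbered 152 under median scaling, 31 with no filter on dim probes, and 0 to 92 when 1 array was left out, the 92 without doxycycline array 2. Pathway genes called numbered 2 (Bnip3 and Pdk4) under median scaling, 1 (Pdk4) with no filter and 0 to 1 with 1 array left out. With the replicate number as a block, 364 probes and 5 pathway genes (Bnip3, Ccn5, Esm1, Irs2 and Pdk4) were called, on 1 residual degree of freedom and an infinite prior. The deviations of same-numbered arrays correlated at -0.13 across probes, and the labels state no pairing; the crossed pairing, chosen after seeing the data, called 75 probes and 1 pathway gene. The cause of these shifts was not tested. Signal near background limits Igf1, Igf2, Igfbp2 and Igfbp7.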
